A study of Mus musculus with 3 samples.

Results

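The genes described here are 36 genes of glycolysis and of the hypoxia response. The list was chosen by gene symbol, with earlier results of these data known. It was read in C2C12 cells, a line of mouse myoblasts that divide as single cells and can fuse to muscle fibres. Of the 36 genes, 32 have at least 1 probe set listed for that gene alone, 66 probe sets in all, among the 12393 genes named on the array. Gpi1 and Eno1 are not listed in the probe annotation used here, and every gene probe set of Gapdh and Bnip3l is shared with other genes. RNA came from 3 cultures: untreated C2C12 cells, cells transfected with EGFP (enhanced green fluorescent protein, the control for transfection) and cells transfected with DGKzeta (diacylglycerol kinase zeta, which converts diacylglycerol to phosphatidic acid). All carry the time label 12 h and grew in medium with 10% fetal calf serum, and the EGFP and DGKzeta cultures were transfected by the FuGene method after 18 h in 6-well plates. Each group had 1 array, so differences could not be tested against the spread between cultures and no p is printed. The share of cells that were transfected, the promoter of the constructs and whether untreated cells received the reagent are not stated in the labels.

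Glycolysis splits glucose into pyruvate in the cytosol, and lactate dehydrogenase and monocarboxylate transporters then turn pyruvate to lactate and carry it out of the cell. When oxygen is low, prolyl hydroxylases of the Egln family no longer mark the transcription factor HIF-1alpha for destruction, and it switches on glucose transporters, most glycolytic enzymes and genes such as Vegfa and Bnip3. Proliferating myoblasts draw on glycolysis also when oxygen is present, and several of these enzymes exist as muscle and non-muscle forms encoded by separate genes.

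On these arrays the differences among the genes were small: none of the 25 measured genes was 2-fold apart between any pair of arrays by its brightest probe set as deposited. With the arrays brought to a common median of the named probe sets, Ndrg1 and Vegfa were at least 2-fold higher in DGKzeta than in EGFP cells. Against untreated cells 3 genes were, Slc2a1, Ndrg1 and Vegfa. Of all genes, 2.36% and 3.65% were as much higher by that scaling, and 77.4% and 72.7% lay above 0. Slc2a1 (glucose transporter), Aldoa (aldolase), Tpi1 (triose phosphate isomerase) and Slc16a1 (lactate transporter) were higher in both transfected cultures than in untreated cells. This held by every measured probe set, as deposited and under 3 other scalings of the arrays. It also held for Eno2 and Ddit4, which have 1 probe set each, as Slc16a1 does. Pgam1 and Ldha, enzymes near the pyruvate end, differed by less than 0.10 on the log2 scale in all 3 comparisons as scaled by the depositors. Pfkl, a phosphofructokinase subunit, was lower in DGKzeta cells than in EGFP cells by both of its probe sets, also under each of those scalings. Hif1a, Vegfa and Ndrg1 had probe sets on both sides of 0 in the comparisons of DGKzeta cells.

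HIF binds DNA at a short core sequence, ACGTG, and the bases before the starts of these genes were searched for it, because many of them are known HIF targets. In the 250 bases before the annotated start, ACGTG or its reverse complement CACGT stood in 21 of the 33 genes with an entry, against 18.5% of all 27025 genes in the same RefSeq table. Counted by start, the share was 51.1% of 47 starts against 16.6% of all 32851. A palindrome CACGTG, the E-box bound by MYC and USF proteins, holds both letter strings at once and stood before 6 of the 47 starts and 6.02% of all. By role, the core stood before all 3 oxygen sensing genes, 7 of 8 HIF targets outside glycolysis and 4 of 10 upper glycolysis genes. A match is only a run of letters in this window, and no binding was measured. The list holds many known HIF targets, and all genes were not matched to it for base composition. No enrichment is therefore read from these shares.

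The 200 bases before the start are shown for 3 genes that were higher in both transfected cultures (Slc2a1, Aldoa, Slc16a1). They are also shown for 2 bright genes whose signal was nearly level as deposited (Pgam1, Ldha). With the arrays brought to a common median, Pgam1 gave log2 ratios of 0.38 and Ldha 0.44 for DGKzeta against EGFP. Against untreated cells they gave 0.28 and 0.32. Sequences are from RefSeq on build GRCm38.p6, 5′ to 3′ on the strand of the gene, with matches to ACGTG or CACGT in capitals. For Aldoa the second of 3 listed starts is shown, the one with a match in this stretch, and for Ldha the first of 2.
Slc2a1 (chr4:119108545-119108744, plus strand): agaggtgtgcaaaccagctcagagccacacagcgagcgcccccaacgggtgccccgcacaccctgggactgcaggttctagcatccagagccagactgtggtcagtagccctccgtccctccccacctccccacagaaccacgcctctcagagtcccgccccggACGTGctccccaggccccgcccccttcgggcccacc
Aldoa (chr7:126799255-126799454, minus strand): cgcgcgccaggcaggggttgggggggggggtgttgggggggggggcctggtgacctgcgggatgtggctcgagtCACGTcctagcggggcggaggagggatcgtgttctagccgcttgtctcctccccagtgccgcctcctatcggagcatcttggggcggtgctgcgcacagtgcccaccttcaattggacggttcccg
Slc16a1 (chr3:104638464-104638663, plus strand): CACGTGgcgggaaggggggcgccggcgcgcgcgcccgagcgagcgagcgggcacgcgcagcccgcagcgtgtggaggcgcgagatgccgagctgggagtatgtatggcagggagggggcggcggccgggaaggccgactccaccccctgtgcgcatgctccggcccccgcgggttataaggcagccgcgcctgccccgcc
Pgam1 (chr19:41911671-41911870, plus strand): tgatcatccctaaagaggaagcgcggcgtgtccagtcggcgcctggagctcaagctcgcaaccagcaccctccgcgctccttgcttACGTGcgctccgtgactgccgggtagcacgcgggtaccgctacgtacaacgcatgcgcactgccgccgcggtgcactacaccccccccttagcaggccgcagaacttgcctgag
Ldha (chr7:46845604-46845803, plus strand): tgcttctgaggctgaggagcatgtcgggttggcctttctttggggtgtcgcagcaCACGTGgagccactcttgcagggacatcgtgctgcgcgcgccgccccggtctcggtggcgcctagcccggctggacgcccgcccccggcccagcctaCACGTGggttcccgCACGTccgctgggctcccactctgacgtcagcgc
Slc2a1, Aldoa and Pgam1 each had 1 match in this stretch, Slc16a1 had 2 that overlap in 1 palindrome, and Ldha had 5, of which 4 lie in 2 palindromes. Every stretch shown holds a match, and the Aldoa start was picked for it, so these stretches cannot compare genes of both kinds. Tpi1, also higher in both transfected cultures, had none in the 250 bases searched. Of the other genes lowest in untreated cells by the brightest probe set, Eno2, Hk1 and Pfkp also had none. Ddit4, Egln3, Ero1l and Vegfa had a match.

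**Figure D1:**
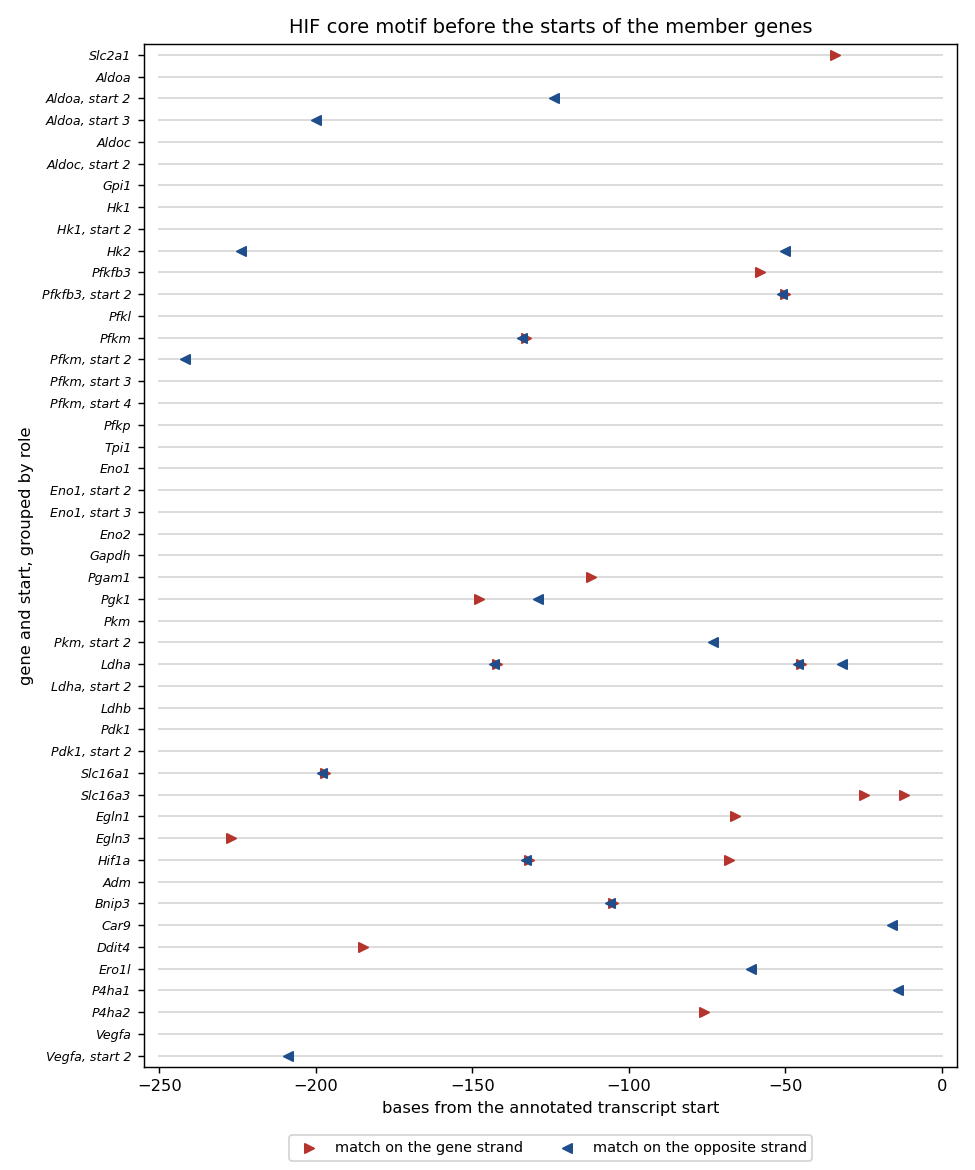
Position of the HIF core motif before each annotated start of the 33 genes with an entry (rows, grouped by role); the horizontal axis gives bases from the start, and triangles mark matches on the gene strand (right-pointing) or the opposite strand (left-pointing). Matches occur in 24 of 47 starts, and overlapping triangles are palindromes.

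Signals are the deposited MAS5 intensities, which had been scaled per array. A floor was set at 107, the pooled median of the 3 arrays; a probe set at or above it counted as measured, and lower values were raised to it before log2. By this floor 25 of the 32 genes were measured, each on all 3 arrays, and 7 lay under it on all. The log2 ratio of 1 probe set had an SD of 0.27 between EGFP and untreated, 0.40 between DGKzeta and EGFP and 0.50 between DGKzeta and untreated, from the difference between both brightest probe sets of 2251 genes. It holds the disagreement of probes within an extract and none of the variation from culture to culture, and below "the SD" means this value for the comparison at hand. Dgkz, the transfected gene, had signals of 1500.1, 1053 and 13466 in untreated, EGFP and DGKzeta cells. Of 6 myoblast markers 5 were measured, with Myod1 under the floor on every array, and of 6 differentiated muscle markers only Acta1 was. Of the 12 named markers of macrophages, endothelium, epithelium and adipocytes only Csf1r reached the floor, on the untreated array. The ratio of the 3′ to the 5′ control probe set of Actb, a measure of how complete the labelled product is, was 1.27 in untreated, 1.43 in EGFP and 2.55 in DGKzeta cells, and its part in the results below was not tested. The Actb controls were themselves lower in DGKzeta than in EGFP cells. Their log2 ratios were -1.35 for the 3′, -2.39 for the middle and -2.19 for the 5′ probe set. With the arrays brought to a common median they were -0.99, -2.03 and -1.83. In RNA from a whole culture, a lower level in every cell and fewer cells with the transcript cannot be told apart.

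Many ratios lay close to 0, where their sign depends on how the arrays are scaled. Bringing the 3 arrays to a common median of the named probe sets (median scaling below) moved the median of all genes from -0.023 to 0.33 for DGKzeta against EGFP, from -0.016 to 0.24 for DGKzeta against untreated and from 0.02 to -0.079 for EGFP against untreated. Under it 10 of the 25 genes took the other sign in DGKzeta against EGFP, namely Egln1, Eno2, Hk1, Hk2, P4ha2, Pfkm, Pfkp, Pgk1, Pkm and Tpi1. In DGKzeta against untreated 6 did, namely Hk2, Ldhb, P4ha1, P4ha2, Pfkm and Pgk1, and in EGFP against untreated 4 did, namely Hk2, Pgk1, Pkm and Vegfa. For these genes the sign of a value given below does not hold by median scaling. Quantile normalization turned the sign of 4, 3 and 2 genes in the 3 comparisons, and a common median over measured probe sets that of 3, 1 and 0.

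Glucose enters through transporters of the SLC2 family, and Slc2a1 (GLUT1), the basal transporter of dividing cells, was ordered untreated, EGFP, DGKzeta. By its brightest probe set the signal was 1158 in untreated, 1521 in EGFP and 2203 in DGKzeta cells, which is 1.90-fold higher in DGKzeta than in untreated cells (log2 ratio 0.93) and 1.31-fold higher in EGFP than in untreated cells (0.39). The DGKzeta array stood highest and the untreated array lowest by this probe set. A second probe set had 1051 in untreated, 1429 in EGFP and 1589 in DGKzeta cells, in the same order, with a log2 ratio of 0.60 for DGKzeta against untreated. The third had 736 in untreated, 1297 in EGFP and 792 in DGKzeta cells, where EGFP was the highest, and its log2 ratios were 0.82 for EGFP against untreated and 0.11 for DGKzeta against untreated. All 3 thus put both transfected cultures above untreated cells and differed on DGKzeta against EGFP, at 0.53, 0.15 and -0.71. Slc2a3 (GLUT3), the high-affinity transporter best known from neurons, had signals of at most 24.1 on its 4 probe sets, under the floor on every array.

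**Figure D2:**
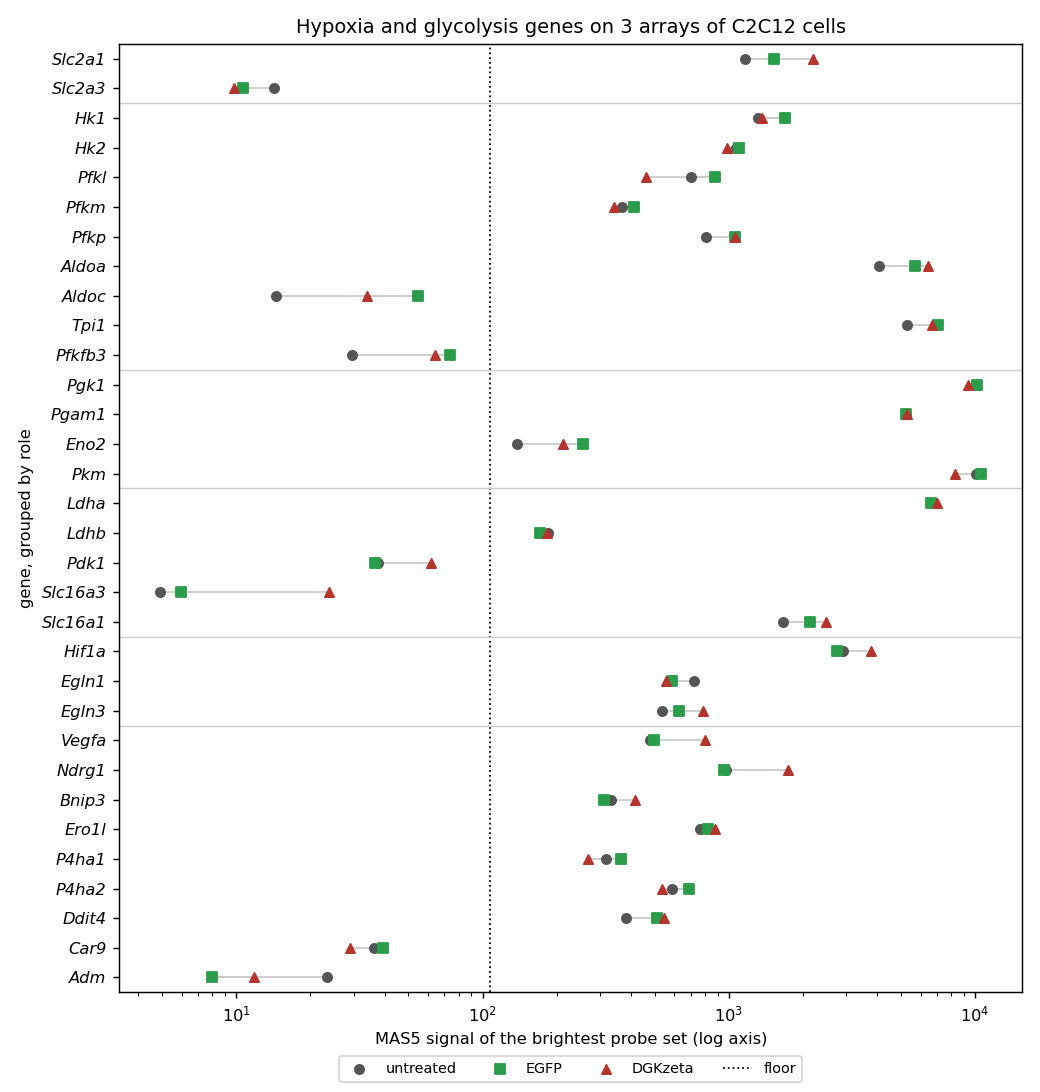
Signal of the brightest probe set of each of the 32 named genes on the untreated (circle), EGFP (square) and DGKzeta (triangle) array, on a log axis, with genes grouped by role and the floor of 107 dotted. The 7 genes to the left of the floor are Slc2a3, Aldoc, Pfkfb3, Pdk1, Slc16a3, Car9 and Adm; Slc2a1, Aldoa and Slc16a1 have the untreated array lowest and the DGKzeta array highest.

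The steps from glucose to triose phosphate were higher in EGFP cells than in untreated cells. All 7 measured upper glycolysis genes had a log2 ratio above 0 there, with a median of 0.37, where the median of all 6932 genes was 0.02 and 53.7% of them lay above 0; by median scaling the group median was 0.27 and Hk2 lay at -0.057. In DGKzeta cells the same 7 genes divided, with a median of 0.055 against untreated and -0.17 against EGFP, or 0.32 and 0.20 by median scaling. Aldoa, which cleaves fructose 1,6-bisphosphate, gave close to the same ratios by all of its probe sets. The brightest had 4062 in untreated, 5694 in EGFP and 6409.5 in DGKzeta cells. Its other probe sets gave 3326, 5369 and 6054, then 1708, 2488 and 2590.1, and 1865, 2875 and 3074 in the same order of arrays. On each of the 4 the untreated array was lowest and the DGKzeta array highest, with log2 ratios of 0.49 to 0.69 for EGFP against untreated, 0.60 to 0.86 for DGKzeta against untreated and 0.058 to 0.17 for DGKzeta against EGFP. All 4 carry the suffix _x_at, which marks probes that can match other transcripts too. Tpi1, which interconverts the triose phosphates, had 5275 in untreated, 7064 in EGFP and 6667 in DGKzeta cells by the brightest of 3. The remaining ones had 5521, 6456 and 6959 and 3709, 4395 and 4171. Tpi1 was thus lowest in untreated cells by all 3, with log2 ratios of 0.23 to 0.42 for EGFP and 0.17 to 0.34 for DGKzeta, while EGFP and DGKzeta lay within 0.11 of each other; only its brightest passed 1 SD, and only for EGFP.

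Hexokinases trap glucose by phosphorylating it, and phosphofructokinases commit it to glycolysis. Hk1, the widespread hexokinase, had 1311 in untreated, 1697 in EGFP and 1362 in DGKzeta cells by its brightest probe set, highest in EGFP cells and nearly level between the others, or 0.046 for DGKzeta against EGFP by median scaling. A dimmer Hk1 probe set had 582, 827 and 267 and a ratio of -1.63 (log2) for DGKzeta against EGFP where the brightest gave -0.32. Hk2, the inducible hexokinase of muscle, had 1071 in untreated, 1104 in EGFP and 983 in DGKzeta cells on its 1 probe set and stayed within the SD in all 3 comparisons. Pfkl, the liver-type phosphofructokinase subunit, was highest in EGFP and lowest in DGKzeta cells, at 700.1 in untreated, 881 in EGFP and 462 in DGKzeta cells. The other Pfkl probe set had 301, 575 and 282, the same order of arrays. DGKzeta cells were 1.90-fold below EGFP cells by the brighter and 2.04-fold below by the dimmer one, more than 2 SD each; by median scaling the log2 ratios were -0.57 and -0.66 in place of -0.93 and -1.03. Against untreated cells the 2 probe sets gave -0.60 and -0.095, so the second differed from EGFP far more than from untreated. Pfkm, the muscle-type subunit, had 368 in untreated, 414 in EGFP and 341 in DGKzeta cells, in the same order as Pfkl and within the SD. Pfkp, the platelet-type subunit, had 805 in untreated, 1061 in EGFP and 1058 in DGKzeta cells, nearly equal in both transfected cultures and 1.32-fold above untreated. Its dimmer probe set went the other way, at 261, 211 and 121, or -1.11 for DGKzeta against untreated.

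**Figure D3:**
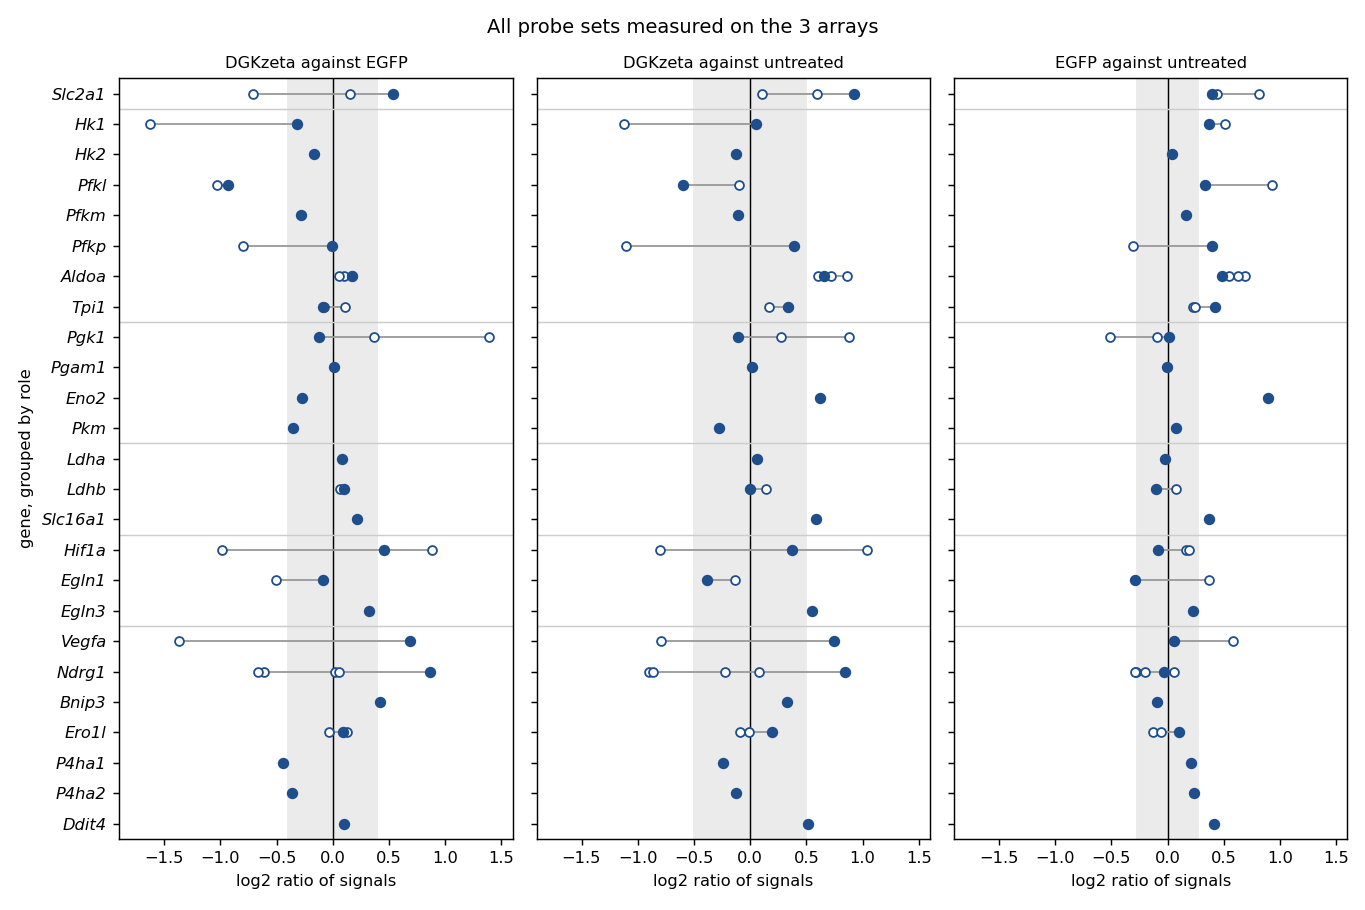
Log2 ratio of each of the 48 probe sets measured on all 3 arrays, by gene (rows, grouped by role) and comparison (panels); filled points are the brightest probe set of a gene, open points its others, lines join probe sets of 1 gene, and the grey band is 1 SD of a single probe set either side of 0. Points of Aldoa lie together in each panel, whereas those of Vegfa, Hif1a and Ndrg1 spread over both sides of 0 in the panels of DGKzeta.

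By the brightest probe sets, the steps from triose phosphate to pyruvate were close to level between EGFP and untreated cells, apart from Eno2. Their 4 measured genes had a median log2 ratio of 0.043 for EGFP against untreated, -0.047 for DGKzeta against untreated and -0.20 for DGKzeta against EGFP; by median scaling these were -0.058, 0.22 and 0.17, so none of the 3 medians kept its sign. Pgam1, the phosphoglycerate mutase of most tissues, had 5263 in untreated, 5254 in EGFP and 5309 in DGKzeta cells. This was the narrowest spread among the measured genes as deposited, while by median scaling DGKzeta against EGFP gave 0.38. Pkm, pyruvate kinase, had 10068 in untreated, 10599 in EGFP and 8312 in DGKzeta cells, lowest in DGKzeta cells at -0.35 against EGFP as deposited, within 1 SD, and 0.013 by median scaling. Pgk1, which makes the first ATP of the pathway, had 10056 in untreated, 10141 in EGFP and 9344 in DGKzeta cells by its brightest probe set. Both other Pgk1 probe sets were highest in DGKzeta cells, at 9385, 8792 and 11346 and at 3320.5, 2328 and 6108. Against EGFP their log2 ratios in DGKzeta cells were 0.37 and 1.39, beside -0.12 for the brightest, and both carry the suffix _x_at. For EGFP against untreated they gave -0.094 and -0.51, the latter beyond the SD, beside 0.012 for the brightest. Eno2, the neuronal form of enolase, lay nearer the floor, at 138 in untreated, 256 in EGFP and 212 in DGKzeta cells. It was 1.86-fold higher in EGFP than in untreated cells, the largest ratio among the brightest probe sets of the measured genes in that comparison and at percentile 99.4 of all genes, and 1.54-fold higher in DGKzeta than in untreated cells, by 1 probe set. Gapdh can be read only from its 3 control probe sets, at 14889.8, 15169.9 and 11608 for the 3′ one in untreated, EGFP and DGKzeta cells. The middle one had 15990.0, 14693 and 12318, and the 5′ one 17712, 16819 and 12470.2. All 3 were lowest in DGKzeta cells, with log2 ratios of -0.43 to -0.25 against EGFP as deposited and -0.068 to 0.11 by median scaling, which reverses the middle one. The 3′ to 5′ ratio of Gapdh was 0.841, 0.902 and 0.931 on the 3 arrays.

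Beyond pyruvate, the lactate transporter differed between cultures more than the dehydrogenases did. Slc16a1 (MCT1), which carries lactate and pyruvate across the membrane, had 1651 in untreated, 2138 in EGFP and 2478 in DGKzeta cells on its 1 probe set. It was ordered like Slc2a1 and Aldoa, with log2 ratios of 0.37 for EGFP and 0.59 for DGKzeta against untreated cells, beyond 1 SD in both comparisons. Ldha, the lactate dehydrogenase subunit that favours lactate formation, had 6740.3 in untreated, 6642 in EGFP and 7019 in DGKzeta cells. Its log2 ratio for DGKzeta against untreated was 0.058 as deposited and 0.32 by median scaling. Ldhb, the heart-type subunit, had 184 in untreated, 171 in EGFP and 183 in DGKzeta cells by its brightest probe set. The next had 147, 155 and 162, and every log2 ratio of both was inside the SD as deposited. The other Ldhb probe sets were under the floor on at least 1 array. The brighter of them had 105, 161 and 163, with log2 ratios before flooring of 0.62 for EGFP and 0.63 for DGKzeta against untreated. These were larger than the ratios of Slc16a1. The dimmer one, under the floor on every array, had 49.3, 95.2 and 88.2. Pdk1, which shuts pyruvate out of the mitochondrion by phosphorylating pyruvate dehydrogenase, was under the floor on every array, at 37.7, 36.6 and 61.7 and at 23.1, 37.5 and 47.2. Slc16a3 (MCT4), the lactate exporter of glycolytic muscle, was also under the floor, at 4.91, 5.95 and 23.9.

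Among the genes of the oxygen sensor itself, Hif1a, which encodes the oxygen-regulated HIF-1alpha subunit, depended on the probe set. The brightest had 2919 in untreated, 2755 in EGFP and 3779.9 in DGKzeta cells, highest in DGKzeta cells at 0.46 against EGFP and 0.37 against untreated. The measured dimmer probe sets went opposite ways in DGKzeta cells, at 217, 242 and 446 and at 219.9, 250.2 and 126. Against EGFP their log2 ratios were 0.88 and -0.98, and the fourth Hif1a probe set was under the floor on every array. As background, HIF-1alpha is regulated mainly by degradation of the protein, which an array of transcripts does not measure. Egln1 (PHD2), the main prolyl hydroxylase that marks HIF-1alpha, had 723 in untreated, 590.0 in EGFP and 554 in DGKzeta cells by the brighter probe set and 445, 576 and 405 by the other. As deposited both put DGKzeta cells lowest (by median scaling the brighter gave 0.27 against EGFP), and they disagreed on EGFP against untreated, at -0.29 and 0.37. Egln3 (PHD3), a hydroxylase that is itself a HIF target and is expressed in muscle, had 535 in untreated, 627 in EGFP and 782 in DGKzeta cells, lowest in untreated and highest in DGKzeta cells. Its log2 ratio was 0.55 for DGKzeta against untreated and 0.23 for EGFP against untreated. A dimmer Egln3 probe set at the floor had 126, 119 and 102, the reverse order.

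HIF targets outside glycolysis had a median log2 ratio of 0.33 for DGKzeta against untreated over 7 measured genes, 0.10 against EGFP, and 0.10 for EGFP against untreated, or 0.59, 0.46 and 0.0038 by median scaling. Vegfa, the growth factor of blood vessels, had 479 in untreated, 497 in EGFP and 801 in DGKzeta cells by its brighter probe set, level in the controls and 1.61-fold higher in DGKzeta than in EGFP cells. Its other probe set had 221, 331 and 128, which is 2.58-fold lower in DGKzeta than in EGFP cells. The ratios of the 2 Vegfa probe sets against EGFP thus lay 2.06 apart on the log2 scale. Ndrg1, a stress-response gene induced by hypoxia, had 973 in untreated, 955 in EGFP and 1741 in DGKzeta cells by the brightest of 5 probe sets, 1.82-fold higher in DGKzeta than in EGFP cells. The second had 1084, 1126 and 1142, level across the arrays, and the third 634, 521 and 542. Both dimmest Ndrg1 probe sets were lowest in DGKzeta cells, at 348, 286 and 187 and at 311, 272 and 171. The 5 log2 ratios for DGKzeta against EGFP ran from -0.67 to 0.87, while for EGFP against untreated they ran from -0.29 to 0.054.

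Other HIF targets had smaller ratios for DGKzeta against EGFP by their brightest probe sets. Bnip3, a mitochondrial protein of mitophagy, had 332 in untreated, 312 in EGFP and 417 in DGKzeta cells on 1 probe set, highest in DGKzeta cells at 0.42 against EGFP, just past the SD. Ddit4 (REDD1), an inhibitor of mTORC1 under stress, had 381 in untreated, 509 in EGFP and 546 in DGKzeta cells, so that both transfected cultures lay above untreated cells, by 0.42 for EGFP and 0.52 for DGKzeta. Ero1l, an oxidase that drives disulphide formation in the endoplasmic reticulum and that the annotation lists as Ero1a, had 767 in untreated, 824 in EGFP and 879 in DGKzeta cells. Its other probe sets had 792, 722 and 787 and 464, 446 and 436, and all of its ratios were within 0.20 of 0. P4ha1 and P4ha2 encode catalytic subunits of the collagen prolyl hydroxylase. P4ha1 had 316 in untreated, 364 in EGFP and 268 in DGKzeta cells and P4ha2 had 585 in untreated, 689 in EGFP and 537 in DGKzeta cells, both highest in EGFP and lowest in DGKzeta cells as deposited. DGKzeta against EGFP gave -0.44 for P4ha1, beyond the SD, and -0.36 for P4ha2, within it; by median scaling they were -0.079 and 0.0033. The dimmer P4ha1 probe set had 144, 164 and 80.0, the same order, or -1.04 for DGKzeta against EGFP before flooring.

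The 7 genes under the floor on all arrays have no measured ratio. Besides Slc2a3, Pdk1 and Slc16a3, they were Aldoc, the brain form of aldolase, at 14.5, 54.8 and 34.1 in untreated, EGFP and DGKzeta cells, Pfkfb3, which makes the activator fructose 2,6-bisphosphate, at 29.5, 73.9 and 64.4, Car9, a surface carbonic anhydrase and one of the most HIF-dependent genes, at 36.1, 39.4 and 29.0, and Adm, which encodes the vasodilator adrenomedullin, at 23.3, 7.98 and 11.8. Car9, Adm, Pdk1 and Slc16a3 are all classic HIF-induced genes, and at these signals no difference in them was detectable.

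Set against all genes, the shift of the list was clearest against untreated cells. Because the list was chosen with earlier results of these data known, the shares here and below describe it and test nothing. Of the 25 measured genes, 6 were at least 1.5-fold higher in DGKzeta than in untreated cells, or 24%, where 7.09% of all 6866 genes were. They were Slc2a1, Ndrg1, Vegfa, Aldoa, Eno2 and Slc16a1. The gene at least 1.5-fold lower was Pfkl, against a background of 9.93%. The median log2 ratio was 0.20 for the list and -0.016 for all genes, and 16 of 25 genes lay above 0, beside 48.3% of all; by median scaling 22 did, beside 72.7%. More than 1 SD above 0 lay 8 genes, where 10.1% of all genes did, and 1 lay as far below, where 13.3% did. When the probe sets of a gene were averaged instead, 3 genes were at least 1.5-fold higher, and the median was 0.033 beside -0.05 for all genes.

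Between EGFP and untreated cells the list differed by smaller amounts. Eno2 was the 1 gene at least 1.5-fold higher, 4% of the list and 4.13% of all genes, and none was as much lower, against 1.51%. More than 1 SD above 0 lay 9 of 25 genes, or 36%, where 19% of all genes did: Slc2a1, Hk1, Pfkl, Pfkp, Aldoa, Tpi1, Eno2, Slc16a1 and Ddit4. Egln1 was the 1 gene more than 1 SD below 0, against 11.6%. The median was 0.17 for the list and 0.02 for all genes, and 18 of 25 genes lay above 0; by median scaling 14 did, beside 38.1% of all genes.

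Between DGKzeta and EGFP cells the list lay close to the median of all genes. Its median was 0.015, beside -0.023 for all genes, and 13 of 25 genes lay above 0, beside 47.4%; by median scaling 23 did, beside 77.4%. More than 1 SD above 0 lay 5 genes (11.1% of all), and 2 as far below (19.8% of all). At least 1.5-fold higher were 2 genes, Ndrg1 and Vegfa, or 8% where the background was 3.51%, and 1 gene, Pfkl, was as much lower, where the background was 11.6%. Pfkl had both of its probe sets on the same side, Ndrg1 had 3 of 5 above 0 (the others besides the brightest at 0.021 and 0.059), and Vegfa had 1 on each side. The 2-fold shares of all genes, past which no gene of the list lay, were 0.347% higher and 2.84% lower between DGKzeta and EGFP, 1.34% and 2.8% between DGKzeta and untreated, and 0.361% and 0.303% between EGFP and untreated. The 3 comparisons share arrays in pairs, so their values are not independent of each other.

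**Figure D4:**
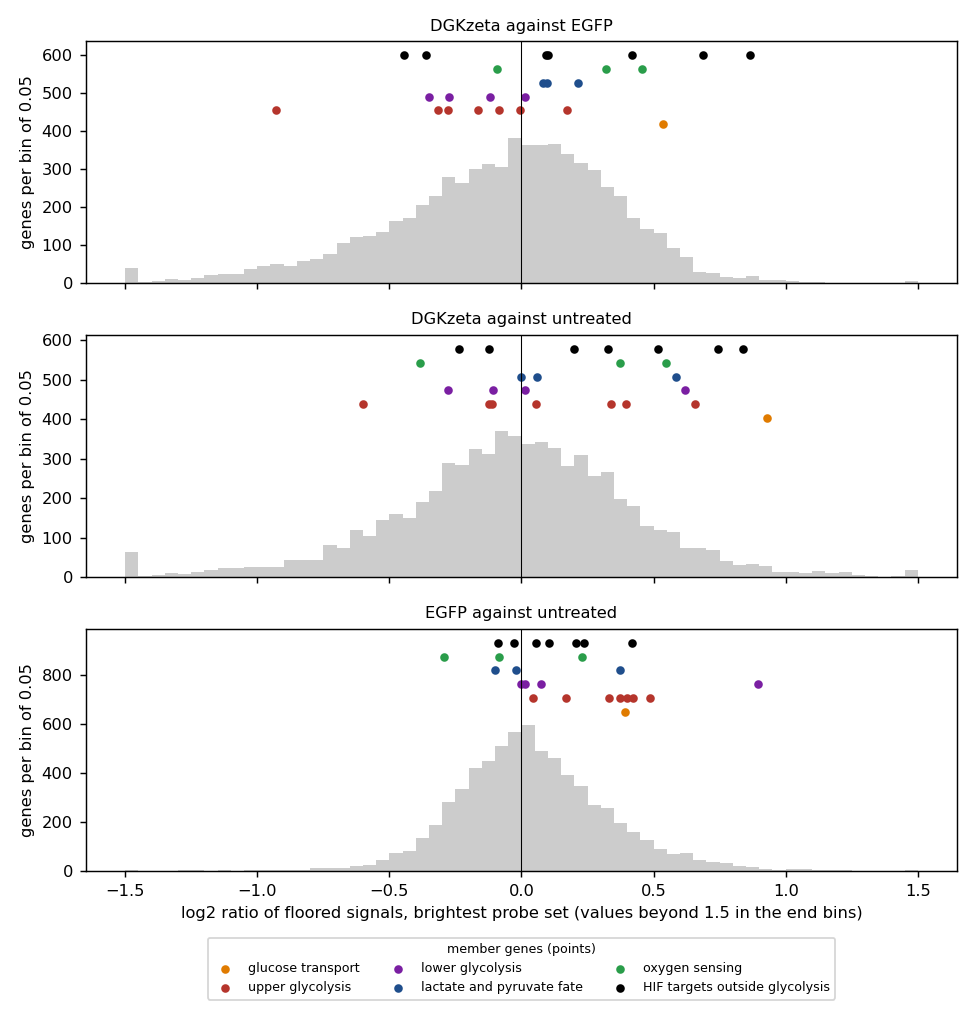
Grey bars count all genes by log2 ratio of the brightest probe set in each comparison, and points above them are the 25 measured genes of the list, coloured and stacked by role. In the lowest panel, EGFP against untreated, the upper glycolysis genes all lie above 0 as deposited (Hk2 does not by median scaling), with a median of 0.37; in the top panel the list spreads on both sides of 0.

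The order of the 3 arrays was also counted. By the brightest probe set the untreated array was the highest of the 3 in 2 of 25 genes, Egln1 and Ldhb, or 8%, where it was the highest in 29.8% of all 6434 genes measured on every array. Under median scaling the untreated array was again highest in 2 genes, beside 20.1% of all. As deposited, the EGFP array was highest in 11 genes, against 31.4% of all, and most of these were glycolytic enzymes: Hk1, Hk2, Pfkl, Pfkm, Pfkp, Tpi1, Pgk1, Eno2 and Pkm, with P4ha1 and P4ha2. By median scaling it was highest in 2, against 11.6% of all. As deposited, the DGKzeta array was highest in 12 genes, against 38.8%: Slc2a1, Aldoa, Pgam1, Ldha, Slc16a1, Hif1a, Egln3, Vegfa, Ndrg1, Bnip3, Ero1l and Ddit4. Several of these orders rest on ratios well inside the SD, those of Pgam1 and Ldha among them, and by median scaling the DGKzeta array was highest in 21 genes and 68.3% of all. The lowest signal was that of untreated cells in 11 genes, of EGFP cells in 6 and of DGKzeta cells in 8, against 31.3%, 27.6% and 41.1% of all; by median scaling these were 13, 11 and 1 genes, against 30.2%, 53.5% and 16.3%.

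Probe sets of 1 gene could be compared in 13 genes with at least 2 of them measured on all 3 arrays, with ratios as deposited. For EGFP against untreated, 6 of the 13 genes had every probe set above 0 (Slc2a1, Hk1, Pfkl, Aldoa, Tpi1 and Vegfa), against 26.7% of 2251 genes, and 0 had every one below 0, against 23.9%. For DGKzeta against untreated, 3 genes were higher by all (Slc2a1, Aldoa and Tpi1) and 2 lower by all (Pfkl and Egln1), against 22.6% and 24.6%. For DGKzeta against EGFP, 2 were higher by all (Aldoa and Ldhb) and 4 lower by all (Hk1, Pfkl, Pfkp and Egln1), against 23.9% and 25.9%. The remaining genes had probe sets on both sides of 0, 7 of 13 for DGKzeta against EGFP, 8 for DGKzeta against untreated and 7 for EGFP against untreated, where 50.2%, 52.8% and 49.4% of all genes did. Probe sets of a gene lay at least 2-fold apart from each other in 6 of the 13 genes for DGKzeta against EGFP, 5 for DGKzeta against untreated and 0 for EGFP against untreated, where the shares of all genes were 13%, 20.2% and 3.64%. Genes of the list with such gaps against EGFP were Slc2a1, Hk1, Pgk1, Hif1a, Vegfa and Ndrg1. In all of them but Pgk1 the lowest ratio came from a dimmer probe set than the brightest, and in Pgk1 the brightest gave the lowest. How often this held among all genes was not counted, so no pattern is read from it.

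Genes of the same pathway that are not on the list gave no direction common to all their groups and comparisons. Of 39 further HIF targets, 34 were named and 23 measured, and their median was 0.0073 for DGKzeta against untreated, -0.027 for DGKzeta against EGFP and 0.023 for EGFP against untreated. At least 2-fold lower were 2 of 22 in DGKzeta against untreated cells and 1 of 23 against EGFP, beside 2.8% and 2.84% of all genes. None was 2-fold higher in either, beside 1.34% and 0.347%. Plod2, a collagen lysyl hydroxylase, had 1205, 621 and 281 in untreated, EGFP and DGKzeta cells, but its other probe set, at 377, 497 and 514, gave a log2 ratio of 0.45 for DGKzeta against untreated in place of -2.10. Slc29a1, a nucleoside transporter, had 3165, 2817 and 1545, or -1.03 against untreated and -0.87 against EGFP on 1 probe set. Plod1, another collagen lysyl hydroxylase, had 499.6, 585 and 302, which is -0.95 on the log2 scale against EGFP. Of 17 regulators of HIF, 10 were measured. As deposited, 8 of the 10 lay above 0 for EGFP against untreated, beside 53.7% of all genes, with a median of 0.077. Their median was 0.15 for DGKzeta against untreated and 0.015 for DGKzeta against EGFP. None of these regulators was 2-fold apart by its brightest probe set. Cited2, which competes with HIF for the coactivator CBP/p300, had 5629, 5695 and 5601 by that probe set, but a dimmer one had 889.9, 1107 and 409, or -1.44 against EGFP and -1.12 against untreated, and was named after its values were seen. The ubiquitin ligase Siah2, which acts on the Egln proteins, had the largest ratio against EGFP among their brightest probe sets, -0.71, from signals of 218, 235 and 144, and its other probe set gave -0.42. Of 24 other glycolysis enzymes and glucose transporters, mostly forms of liver, testis or mature muscle, 5 were measured, with a median of 0.18 for EGFP against untreated and 0.037 for DGKzeta against untreated.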

How the data were processed

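Per the labels' protocols, RNA was prepared with Trizol and RNeasy, and 1 Affymetrix array was hybridised per culture with biotin-labelled product of the one-cycle protocol. The authors deposited an intensity for each probe set, linear and computed with MAS5 per the submitters' processing notes, which name no version, scaling target or detection call. The mean between the 2nd and 98th percentile was 500.0 on every array, so the deposited intensities were already scaled, and they were used as they are. MAS5 summarises few probes a set, and shortened product lowers sets far from the 3′ end; probe positions were not used.

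Of 20380 probe sets with 1 gene symbol, 20351 were found by gene ID in a RefSeq table of GRCm38.p6 and 0 symbols differed; 691 with several symbols, 1555 with none and 64 controls were left out, except the Gapdh and Actb controls. A gene was represented by its brightest probe set (highest mean log2 value), floored at the 50th percentile of all values. Comparisons over genes used those measured on at least 1 of both arrays. With 1 array a group no test across arrays was possible, and the number of arrays limits the precision. All 36 genes are named by rule; of the wider lists, those 2-fold apart or among the 6 largest ratios of DGKzeta to EGFP. The members and lists were chosen with earlier results of these data known. Alternatives were 3 scalings, 2 other floors, no floor, a pseudocount at the 10th percentile, other choices of probe set and rules of 1.5-fold and 3-fold. The counting was run on simulated data with noise far under the SD. Changes were placed only in genes far above the floor, with all probe sets of a gene moved alike. It thus checks the arithmetic of the counts and not how they behave on arrays like these. Promoter sequences came from RefSeq, with motifs searched on both strands. Python 3.11.15, numpy 2.4.6, pandas 2.3.3 and matplotlib 3.10.9 were used.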

Additional observations from a re-analysis of the deposited data

How the results depend on the processing

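No paired analysis was possible because each group has 1 sample. As deposited, the median of the list was 0.015 for DGKzeta against EGFP, 0.20 for DGKzeta against untreated and 0.17 for EGFP against untreated. Median scaling, which moved the median of all genes to 0.33, 0.24 and -0.079, gave 0.38, 0.46 and 0.067, so the distance from all genes stayed at 0.045, 0.22 and 0.15. By it 6 of 25 genes were at least 1.5-fold higher against EGFP, close to the 24.3% of all genes. None was as much lower, beside 3.81% of all. For DGKzeta against untreated 12 were higher and 0 lower, beside 19.1% and 4.44%. At least 2-fold higher in these comparisons were 2 and 3 genes, beside 2.36% and 3.65% of all. Equal medians over measured probe sets gave a median of 0.12 against EGFP. For DGKzeta against untreated they gave 1 gene 2-fold higher, beside 1.82% of all, and 0 genes 1.5-fold lower, beside 7.31%. Quantile normalization also gave 0 of the last, beside 6.71%. Of the log2 ratios reported as 1.5-fold or more, 7 values over all 10 settings took the other sign. Over all ratios 65 signs differed, 20 of them by median scaling. The 7 were Vegfa with the mean over probe sets (-0.34 against EGFP, -0.023 against untreated) and by its second-brightest (-1.37 and -0.79), and Ndrg1 with the mean (-0.066 and -0.21) and with _x_at and _s_at probe sets left out (-0.23 against untreated). The median for DGKzeta against untreated was 0.033 with the mean, 0.057 without those suffixes and 0.33 with the lower floor.

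The count at least 1.5-fold higher against EGFP was 4 of 30 with the floor at the 25th percentile and 1 of 19 at the 75th. It was 0 of 25 with the mean, 1 of 13 by second-brightest probe sets and 1 of 24 without those suffixes. The shares of all genes were 7.38%, 2.83%, 1.62%, 5.46% and 3.01% in that order. The count lower was 2 with the lower floor, 2 with the mean and 4 by second-brightest probe sets, 3 of them 2-fold. All genes had shares of 16.9%, 10% and 15.9%, and 5.82% for 2-fold. For DGKzeta against untreated, 10 of 31 were 1.5-fold higher with the lower floor, 3 with the mean and 3 by second-brightest probe sets. All genes had shares of 11.2%, 4.06% and 9.15%. The counts lower were 2, 0 and 3, beside 14.3%, 9.31% and 18.1% of all, and 0 at the higher floor, beside 5.24%. In that comparison 2 were 2-fold higher with the lower floor (3.44% of all). By second-brightest probe sets 1 was 2-fold higher and 2 were lower (2.31% and 6.8% of all). For EGFP against untreated, 3 were 1.5-fold higher and 1 lower with the lower floor, beside 11% and 6.61% of all. Of the 3, 2 were 2-fold higher, beside 3.69%. At the higher floor 0 were 1.5-fold higher, beside 1.33%. With the mean 3 were, beside 2.73%, and by second-brightest probe sets 2 were, beside 4.44%. A rule of 1.5-fold in place of 2-fold gave 2 higher and 1 lower against EGFP, 6 and 1 for DGKzeta against untreated, and 1 higher for EGFP against untreated. A lower floor brings in genes of weak signal, and second-brightest probe sets cover 13 genes; for the other settings the cause was not tested.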

Other observations

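Pathways that branch from glycolysis had small median ratios on these arrays. Of 11 pentose phosphate genes, which make NADPH and ribose, 9 were measured, with a median log2 ratio of 0.13 for EGFP against untreated, 0.072 for DGKzeta against untreated and -0.062 for DGKzeta against EGFP. Rpia, which forms ribose 5-phosphate, had signals of 461, 765 and 659 in untreated, EGFP and DGKzeta cells, 0.73 for EGFP against untreated, and was named after its values were seen. Pgls, the lactonase of the oxidative branch, had 1709.7, 1900.0 and 1095 and H6pd, the hexose 6-phosphate dehydrogenase of the endoplasmic reticulum, had 231, 278 and 174. Both were lowest in DGKzeta cells, at -0.80 and -0.68 against EGFP on 1 probe set each.

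Genes of pyruvate entry into mitochondria had a median of 0.15 for DGKzeta against untreated over 8 measured genes and 0.086 for EGFP against untreated over 9. Pdhb, a subunit of pyruvate dehydrogenase, had 2419.9, 2635 and 3565, or 0.56 for DGKzeta against untreated, and was named after its values were seen. Glycogen genes had a median of 0.17 for DGKzeta against untreated and 0.094 against EGFP over 9 genes, and none of the 14 glycogen genes or the 14 of pyruvate entry was 2-fold apart among those measured. By median scaling all log2 ratios of 1 comparison move by about the same amount, as given for all genes above.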
